A study of Homo sapiens with 8 samples.

Results

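The extracellular matrix of hepatic stellate cells holds, beside the collagens, a set of glycoproteins, proteoglycans and elastic fibre components. A list of 40 of their genes, given by name, was followed in LX-2 cells, some of which received an inhibitor of O-GlcNAc transferase (OGT). Of the 40 genes listed, 39 had a row among the 16796 genes of the count files, 34 were among the 14895 genes tested and 33 received an adjusted p-value (q). GPC4 was not analysed here. ELN, MFAP2, MFAP4, DCN and FMOD held under 10 counts in all 8 libraries together and were not tested.

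LX-2 is an immortalised human hepatic stellate cell line with the traits of an activated, myofibroblastic cell (MF-HSC), and all libraries came from this single line grown in medium with 5% serum. The 4 control cultures received the vehicle DMSO, spelled DSMO in the label of control replicate 4, and the 4 OGTi cultures received OSMI-1, a small-molecule inhibitor of OGT, at 50 µM over 24 h. The libraries were labelled as biological replicates, and the treated and control libraries of 1 number were paired. The comparison of OGTi with control asked which of these matrix genes follow OGT activity in a myofibroblastic cell.

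Matrix glycoproteins such as fibronectin, the thrombospondins and tenascin C bind cells, growth factors and other matrix molecules, and several of them are deposited in scar tissue by myofibroblasts. Elastic fibres consist of an elastin core on a scaffold of fibrillin microfibrils, to which fibulins and emilins attach. Proteoglycans carry long sulfated sugar chains, the glycosaminoglycans. Versican and the small leucine-rich proteoglycans lie in the matrix, whereas syndecans span the cell membrane and glypicans are tied to it by a lipid anchor. OGT adds single sugars to proteins of the nucleus and cytoplasm and has no part in building the glycosaminoglycan chains, which are made in the Golgi apparatus.

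The promoters of 5 members of 2 families are shown first, because in these families members moved in opposite directions. THBS1 and THBS2 were lower and THBS3 was higher in OGTi libraries, and SDC3 was lower while SDC1 was higher. Each sequence is the strand of the gene, 5′ to 3′, from the RefSeq promoter table on GRCh38.p14. It is the longest stretch without any annotated exon within the 250 bases before the start of the gene's reference transcript. It covers chr15:39580829-39581078 on the plus strand for THBS1, chr6:169253897-169253989 on the minus strand for THBS2 and chr1:155207982-155208147 on the minus strand for THBS3. It covers chr2:20225131-20225261 on the minus strand for SDC1 and chr1:30908759-30909008 on the minus strand for SDC3. The stretches of THBS2, THBS3 and SDC1 lie within the annotated span of their gene. These spans reach further upstream than the reference transcript, to 169254050, 155209051 and 20225433, so these 3 stretches are not upstream of the whole gene. Capitals mark the letters GGAATG (a core of TEAD sites), GGGCGG (SP or KLF sites) and CAGACA (SMAD sites) on either strand.
THBS1: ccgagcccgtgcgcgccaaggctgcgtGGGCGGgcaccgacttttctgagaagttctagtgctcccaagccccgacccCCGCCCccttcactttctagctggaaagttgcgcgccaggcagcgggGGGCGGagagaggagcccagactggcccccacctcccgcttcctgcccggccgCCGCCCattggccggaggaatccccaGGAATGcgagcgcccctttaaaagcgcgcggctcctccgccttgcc
THBS2: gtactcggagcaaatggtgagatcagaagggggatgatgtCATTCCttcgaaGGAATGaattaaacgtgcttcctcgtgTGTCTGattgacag
THBS3: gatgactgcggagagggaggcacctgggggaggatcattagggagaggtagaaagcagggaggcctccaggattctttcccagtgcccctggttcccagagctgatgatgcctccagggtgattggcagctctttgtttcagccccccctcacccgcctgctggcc
SDC1: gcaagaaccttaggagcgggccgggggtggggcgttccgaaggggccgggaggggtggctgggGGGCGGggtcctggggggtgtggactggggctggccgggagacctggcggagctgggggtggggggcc
SDC3: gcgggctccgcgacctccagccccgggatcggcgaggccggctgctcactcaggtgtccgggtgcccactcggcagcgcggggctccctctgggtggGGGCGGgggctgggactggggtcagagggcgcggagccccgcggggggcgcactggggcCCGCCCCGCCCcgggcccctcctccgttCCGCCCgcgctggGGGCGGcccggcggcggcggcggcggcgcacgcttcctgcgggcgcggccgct

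The stretches shown of the thrombospondin promoters differed in length and in these letters. THBS2 held GGAATG at 103 to 98 and at 91 to 86 bases before the start of its reference transcript, once on each strand. It also held CAGACA at 64 to 59 bases. THBS1 held GGAATG once, at 46 to 41 bases, and GGGCGG 4 times. The 166 bases shown of THBS3 held no match, but its full 250 bases held GGGCGG once. Only 93 bases of THBS2 are shown, and its full 250 bases held CAGACA 2 times. In the syndecans, GGGCGG occurred once in the 131 bases of SDC1 and 5 times in the 250 bases of SDC3.

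Promoters of 29 of the 39 members with a row in the files were matched in the RefSeq table, and the motif counts that follow use the full 250 bases, in both directions. The entry used for FBN1 began 739 bases from the start of its reference transcript. Shares are given over all 35116 promoters and then over the 16753 promoters of genes tested. Of the 29 members, 17 were called lower and 3 higher. GGAATG was present in 8 members, 5 called lower and 0 called higher, against 11.9% and 10.1%. TGANTCA, the letters of AP-1 sites, was present in 4 members, 1 lower and 1 higher, against 6.57% and 4.83%. GGGCGG was present in 22 members, 13 lower and 3 higher, against 42.6% and 60.9%. TATAAA, the TATA box, was present in 5 members, 2 lower and 1 higher, against 10.7% and 6.45%. CAGACA was present in 3 members, 2 lower and 1 higher, against 13.6% and 11.1%. Differences between the directions were not tested. None of these motifs lies within another, and a match is a description of the sequence only.

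The libraries held 24166756 to 28201215 counts, and 12829 to 13180 genes per library reached 10 counts. All 16 stellate cell or myofibroblast markers had a row in the files, and 11 of them had a mean over 100 normalized counts, whereas DES, GFAP, LRAT and HAND2, of which several mark quiescent stellate cells, stayed at a control mean of 3.58 or lower. The summed level of these 16 markers was 7820 to 9126 CPM (counts scaled to a common library total) in control and 5985 to 6969 in OGTi libraries. Hepatocyte markers, 5 of 10 with a row, summed to 1.78 to 3.99 CPM in control and 7.83 to 11.7 in OGTi libraries. Of these, CYP2E1 was at a mean of 41.4 normalized counts in control and 199.8 in OGTi libraries. SERPINA1, at 46.8 and 44.05, was not called, and APOA1 was near 0. Epithelial markers, 7 of 8 with a row, summed to 713 to 868 CPM in control and 606 to 704 in OGTi libraries, almost all of it KRT8 and KRT18, with KRT19 and CDH1 near 0. Endothelial markers, 6 of 8 with a row, summed to 2.84 to 3.72 CPM in control and 0.879 to 2.03 in OGTi libraries. Leukocyte markers, 4 of 10 with a row, summed to 2.65 to 4.35 and 2.21 to 4.71 CPM. The part of these shifts in the matrix results was not tested, and fewer cells of a kind cannot be told apart from less RNA per cell in bulk RNA.

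Most of the matrix genes with a q fell upon OGTi treatment. Of the 33 members, 19 were called lower in OGTi libraries (57.6%), 4 were called higher (12.1%) and 10 were not called, where a gene was called at a DESeq2 q of 0.05 or lower. Over all genes, 24.0% were called lower and 22.7% were called higher, 46.6% in all. The median log2 fold change (log2 FC, OGTi over control) of the 34 members tested was -0.40, and that of all genes tested was 0.00. All 23 called members had the same direction in each of the 4 replicate pairs. The calls rest on these same pairs, so this is a description and no separate support. The share among all called genes was not computed. The 4 OGTi libraries lay below all 4 control libraries for 12 of the 34 members tested and above them for 3, against 19.2% and 18.8% of all genes tested. Falls of at least 2-fold were found for THBS2, MATN2, SDC3 and POSTN, so for 4 of 33 members, against 4.48% of all genes with a q. A rise of at least 2-fold was found for 0 members, against 4.08% of all genes with a q.

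**Figure D1:**
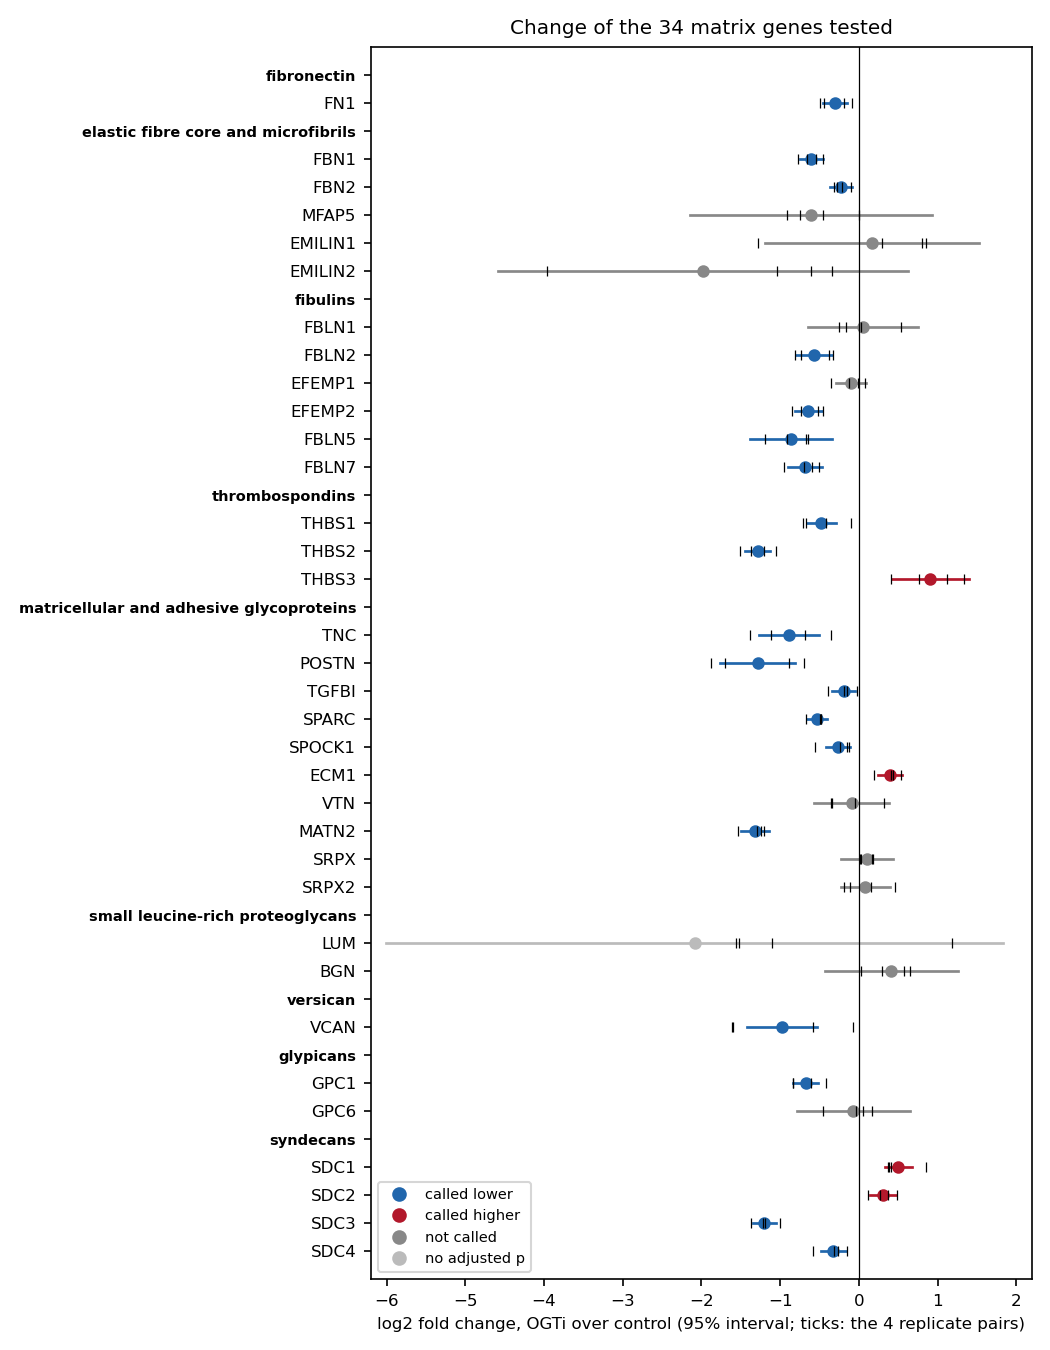
The log2 FC of OGTi over control (x axis) is drawn for each of the 34 members tested, grouped by role, with points for the DESeq2 estimate, lines for its 95% interval and ticks for the 4 replicate pairs. Most coloured points lie left of 0, with THBS3, ECM1, SDC1 and SDC2 on the right, and the widest intervals belong to the genes of lowest count, LUM and EMILIN2.

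Levels between genes are compared as normalized counts per kb of the reference transcript. FN1 stood first in control libraries with 14370 ± 2929 per kb (SD, n = 4), followed by SPARC with 6639 ± 280.1 and GPC1 with 3558 ± 136.4. SPOCK1 (3353 ± 411.2), TGFBI (3115 ± 287.9) and TNC (2861 ± 237.3) came next, and GPC1 to TNC differed from their neighbours in this order by less than the spread between libraries. The members together took 1.02% ± 0.092 of all counts in control and 0.816% ± 0.078 in OGTi libraries (SD, n = 4 each). Their ranges, 0.907% to 1.12% in control and 0.752% to 0.916% in OGTi libraries, overlapped. FN1 alone made up 43.2% ± 4.64 of the members' counts in control and 46.8% ± 5.03 in OGTi libraries. Without FN1 the members' share was 0.577% ± 0.017 in control and 0.431% ± 0.020 in OGTi libraries, with ranges of 0.555% to 0.595% and 0.410% to 0.451% that did not overlap.

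**Figure D2:**
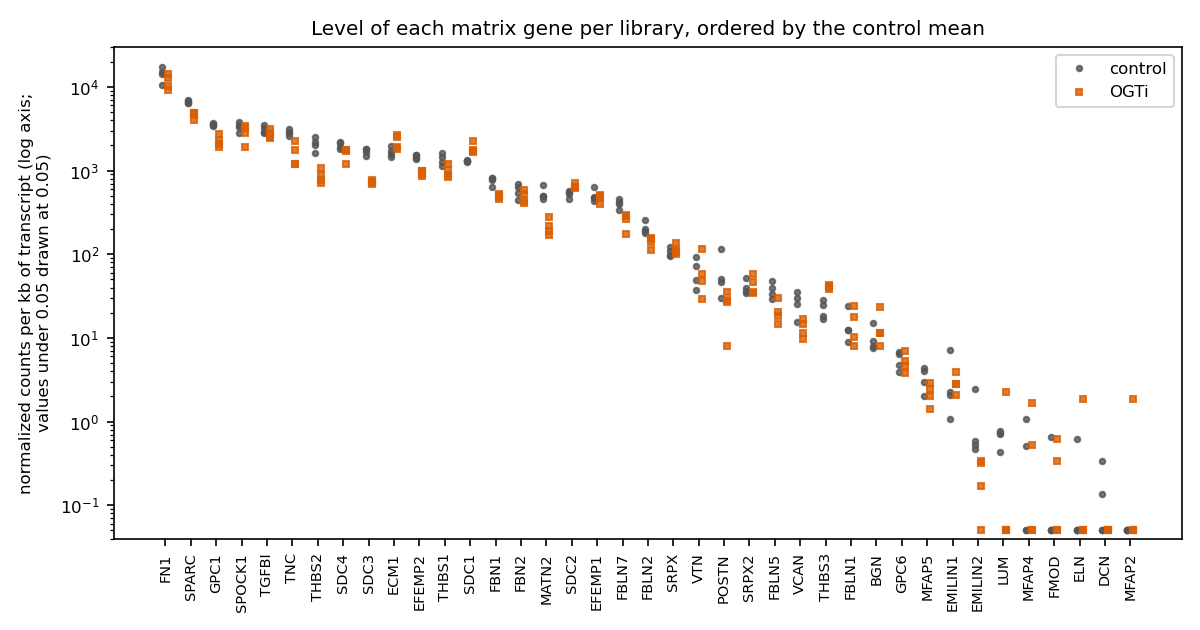
Normalized counts per kb of transcript (y axis, log scale) are drawn for the 39 members in each control (circles) and OGTi (squares) library, in the order of the control mean, with values under 0.05 drawn at 0.05. The levels run from FN1, at a control mean of 14370, down to genes with 0 counts in most libraries, such as ELN, DCN and MFAP2.

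Fibronectin, encoded by FN1 at chr2:215360440-215436073 (minus strand), is the adhesive glycoprotein on which many other matrix components assemble. Its normalized count was 87273, 127635, 146123 and 121135 in control replicates 1 to 4, and 76774, 120639, 107683 and 85683 in OGTi replicates 1 to 4. The groups overlapped, while each OGTi library lay below the control of its own number. The log2 FC was -0.30 ± 0.08 (SE, q = 0.000448). This call rested on the pairing, since q was 0.106 without the replicate block.

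Of 5 elastic fibre core and microfibril genes with a q, FBN1 and FBN2 were called lower, against 24.0% of all genes, and 3 were not called. ELN, encoding elastin, held 9 counts in all, with 0, 0, 0 and 2 in the control and 7, 0, 0 and 0 in the OGTi libraries. FBN1, the main fibrillin of microfibrils, lay at 7291, 9597, 9358 and 8951 normalized counts in control and at 5329, 5616, 5938 and 6150 in OGTi replicates 1 to 4. No OGTi library reached the lowest control library, and the log2 FC was -0.61 ± 0.07 (q = 3.2e-15). FBN2, another fibrillin, went from 6311 ± 1164 to 5365 ± 880.4 (SD, n = 4 each) with overlapping groups, a log2 FC of -0.23 ± 0.07 and a q of 0.00323. For FBN2, q was 0.175 without the replicate block and 0.0665 without replicate 4. The microfibril-associated genes were low. MFAP5 had means of 9.59 in control and 6.26 in OGTi libraries with a 95% interval of the log2 FC from -2.14 to 0.93, and its counts were fractional in all 8 libraries, so that it shared reads with other genes. MFAP2 held 0 of 105916334 control counts, which allows up to 0.0283 CPM (3 counts), and MFAP4 held 7 counts in all libraries. The emilins, glycoproteins at the surface of the elastin core, were not called. EMILIN1 was at 12.3 and 11.4 normalized counts in control and OGTi libraries (log2 FC interval -1.19 to 1.53). EMILIN2 was at 6.0 and 1.23 (interval -4.58 to 0.62), and its OGTi libraries all lay below its control libraries.

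Fibulins connect the elastic fibre to microfibrils and basement membranes, and EFEMP2 and FBLN5 encode the fibulins needed for elastic fibre assembly. Of 6 fibulin genes, 4 fell and 0 rose, against 24.0% and 22.7% of all genes. EFEMP2 was the most abundant of them per kb (1464 ± 91.1 in control). Its normalized count was 2999, 2648, 2713 and 2964 in control and 1660, 1926, 1897 and 1776 in OGTi replicates 1 to 4. The groups were far apart compared with their spread, and the log2 FC was -0.64 ± 0.09 (q = 3.5e-12). FBLN7 fell from 931 ± 119.5 to 586 ± 127.1 (log2 FC -0.69 ± 0.11, q = 3.97e-09), although some of its reads were shared with other genes in 6 libraries. FBLN2 fell from 891 to 601 (log2 FC -0.56 ± 0.12, q = 7.54e-06). Neither gene overlapped between groups. FBLN5 fell from 98.3 to 54.9 with overlap (log2 FC -0.86 ± 0.27, q = 0.00402), and its q was 0.0624 without replicate 4. FBLN1 (41.6 and 43.9) and EFEMP1 (1378 and 1277) were not called, with log2 FC intervals of -0.65 to 0.75 and -0.29 to 0.09. Summed over the family, the level per kb was 2636 ± 144.4 in control and 1840 ± 137.5 in OGTi libraries. Of the 4 latent TGF-beta binding proteins, which sit on microfibrils and hold TGF-beta in an inactive complex, LTBP2, LTBP3 and LTBP4 fell as well, with log2 FC of -0.68 ± 0.15, -0.42 ± 0.09 and -1.11 ± 0.08. LTBP1, with a log2 FC of -0.26 ± 0.20, was not called.

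Thrombospondins are secreted glycoproteins that bind cells, collagens and growth factors, and the thrombospondin encoded by THBS1 can release active TGF-beta. Of the 3 members, THBS1 and THBS2 fell and THBS3 rose. THBS4, which is not among the members and was named after its values were seen, also rose, from 22.7 to 54.6 normalized counts (log2 FC 1.29 ± 0.39, q = 0.00329). THBS2 (chr6:169215780-169254050, minus strand) lay at 9321, 12533, 14514 and 11515 normalized counts in control and at 4033, 6051, 5116 and 4442 in OGTi replicates 1 to 4. Every OGTi library held fewer than the lowest control library, and the log2 FC was -1.28 ± 0.08 (q = 3.46e-54), a 2.44-fold fall. THBS1 (chr15:39581079-39599466, plus strand) lay at 8734, 9934, 12808 and 11306 in control and at 6551, 9247, 8014 and 6919 in OGTi replicates 1 to 4. Here OGTi replicate 2 stood above control replicate 1, and the log2 FC was -0.48 ± 0.09 (q = 1.88e-06). THBS3 (chr1:155195588-155209051, minus strand) was far lower in level and went the other way, from 77.9, 90.2, 52.9 and 58.2 in control to 132, 120, 136 and 128 in OGTi replicates 1 to 4. All OGTi libraries were above all control libraries, and the log2 FC was 0.91 ± 0.25 (q = 0.00101). The summed level of THBS1, THBS2 and THBS3 per kb was 3495 ± 582.2 in control and 1889 ± 309.0 in OGTi libraries. THBS2 made up 60.0% ± 2.15 of that sum in control and 45.5% ± 0.80 in OGTi libraries, so that THBS1 took its place as the more abundant transcript per kb.

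**Figure D3:**
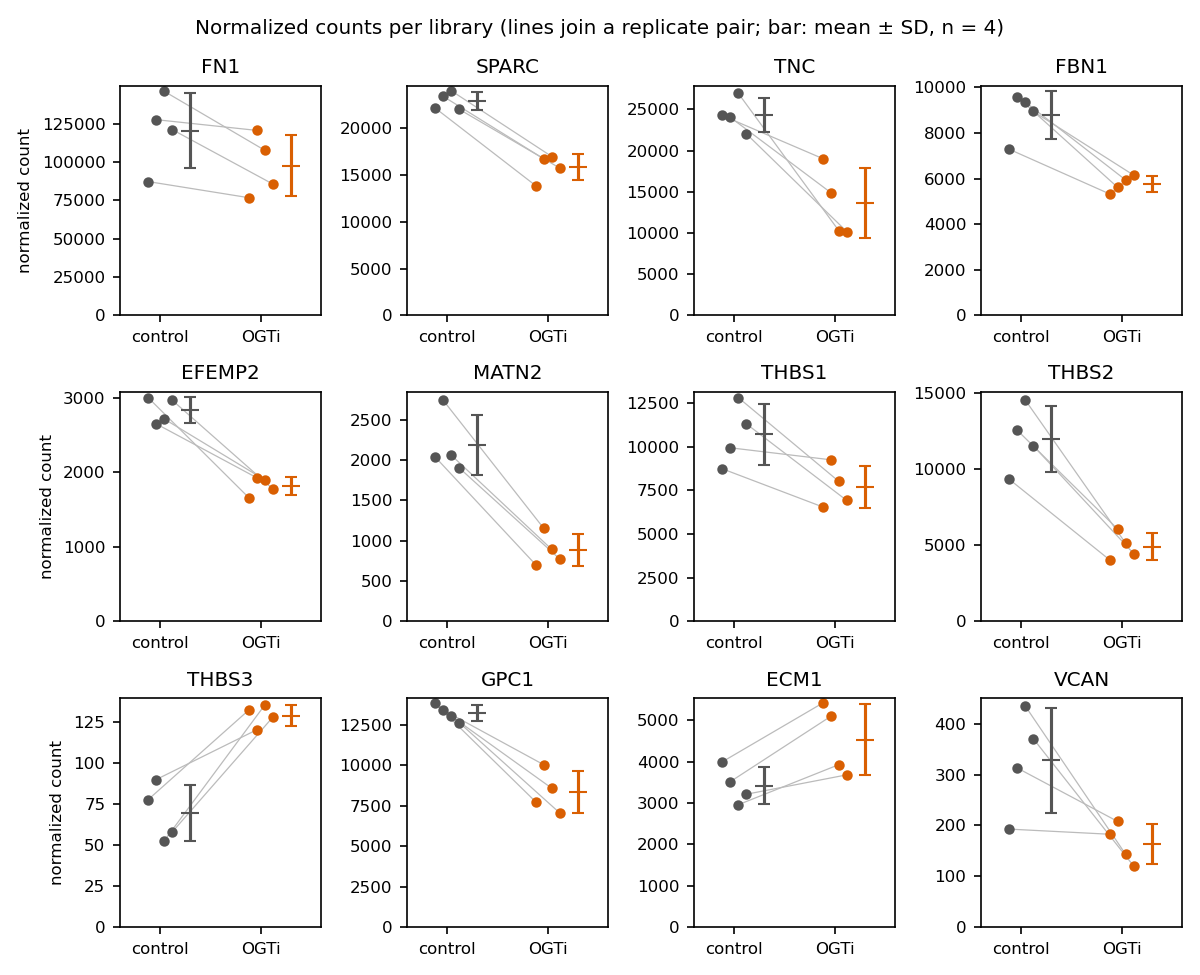
Normalized counts (y axis from 0) of 12 members are drawn for each control and OGTi library, with lines joining replicate pairs and bars for the mean ± SD (n = 4). THBS2, MATN2, FBN1, EFEMP2, SPARC, GPC1 and TNC fall with 2 separate groups, while FN1, THBS1 and VCAN fall within pairs but overlap. THBS3 rises with 2 separate groups, and ECM1 rises within pairs but overlaps.

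Among the matricellular and adhesive glycoproteins, 6 of 10 fell, 1 rose and 3 were not called. Over all genes, 24.0% fell and 22.7% rose. TNC encodes tenascin C, a large glycoprotein of healing wounds and scars. It lay at 24248, 24034, 26945 and 22034 normalized counts in control and at 19026, 14901, 10289 and 10169 in OGTi replicates 1 to 4. The OGTi libraries were all lower but more spread out, replicates 3 and 4 being lower than 1 and 2, and the log2 FC was -0.89 ± 0.20 (q = 3.23e-05). SPARC, a collagen-binding glycoprotein, lay at 22172, 23418, 24019 and 22032 in control and at 13875, 16746, 16989 and 15750 in OGTi replicates 1 to 4. Its groups did not overlap, and the log2 FC was -0.54 ± 0.07 (q = 3.87e-15). MATN2, a filament-forming matrilin, showed the lowest log2 FC of the called members, with 2039, 2742, 2062 and 1903 in control and 703.7, 1155, 893 and 773 in OGTi replicates 1 to 4 (log2 FC -1.32 ± 0.09, q = 8.79e-47). The highest OGTi library of MATN2 was below its lowest control library.

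POSTN, encoding periostin, was of low level and varied among controls. Its normalized count was 100.3, 152, 382 and 165 in control and 26.5, 93.4, 116 and 89.2 in OGTi replicates 1 to 4. OGTi replicate 3 exceeded control replicate 1, and the log2 FC was -1.28 ± 0.24 (q = 6.86e-07), with a q of 0.0568 without the replicate block. TGFBI, a TGF-beta-induced adhesion protein, went from 8448 to 7404 (log2 FC -0.19 ± 0.08, q = 0.0262). SPOCK1, a proteoglycan of the SPARC family, went from 16176 to 13673 (log2 FC -0.27 ± 0.08, q = 0.00234). Both overlapped between groups and lost their call without the replicate block (q = 0.105 and 0.193). TGFBI also lost it without replicate 3 or 4 (q = 0.0862 and 0.277), and SPOCK1 without replicate 2 (q = 0.087).

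ECM1, a glycoprotein that binds perlecan and fibulins, rose. It lay at 3993, 3514, 2959 and 3212 normalized counts in control and at 5411, 5090, 3925 and 3680 in OGTi replicates 1 to 4. OGTi replicates 3 and 4 were below control replicate 1, while each pair rose, and the log2 FC was 0.39 ± 0.08 (q = 2.09e-06). VTN, encoding vitronectin, an adhesive protein made chiefly by hepatocytes, was at 102 and 102 normalized counts in control and OGTi libraries and was not called (log2 FC interval -0.56 to 0.39). SRPX and SRPX2, secreted sushi-repeat proteins, were not called either, with intervals of -0.22 to 0.43 and -0.23 to 0.40.

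The small leucine-rich proteoglycans, which bind collagen fibrils, were all low in LX-2 cells. DCN (decorin) held 3 counts and FMOD (fibromodulin) 5 counts in the 8 libraries, and DCN held 0 of 104838496 OGTi counts, which allows up to 0.0286 CPM. LUM (lumican) held 13 counts and received no q. BGN (biglycan) was at 23.4 and 32.2 normalized counts in control and OGTi libraries, and its log2 FC interval ran from -0.43 to 1.26. VCAN encodes versican, a large chondroitin sulfate proteoglycan. It lay at 193, 313, 434 and 370.3 in control and at 183, 208, 143 and 120.2 in OGTi replicates 1 to 4. Pairs 3 and 4 fell by 1.59 and 1.61 on the log2 scale and pair 1 by 0.08, so that OGTi replicate 2 stood above control replicate 1. The log2 FC was -0.97 ± 0.23 (q = 8.56e-05).

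GPC1 encodes glypican 1, a heparan sulfate proteoglycan of the cell surface. It lay at 13825, 13421, 13043 and 12641 normalized counts in control and at 7756, 10044, 8594 and 7063 in OGTi replicates 1 to 4. The control libraries were close together and all OGTi libraries were lower, with a log2 FC of -0.67 ± 0.08 (q = 1.7e-15). GPC6, another glypican, was at 39.0 and 37.2 and was not called (log2 FC interval -0.79 to 0.65).

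The 4 syndecans were all called, 2 in each direction, against 46.6% of all genes called in either direction. None overlapped between groups. Of all genes tested, 19.2% had all OGTi libraries below all control libraries and 18.8% had them above. Syndecans carry heparan sulfate chains and act as co-receptors for integrins and growth factors. SDC3 (chr1:30869466-30908758, minus strand) lay at 9555, 7764, 9499 and 8830 normalized counts in control and at 4092, 3872, 3669 and 3858 in OGTi replicates 1 to 4. This was a 2.29-fold fall in tightly grouped OGTi libraries, with a log2 FC of -1.20 ± 0.08 (q = 6.68e-54). SDC1 (chr2:20200797-20225433, minus strand) lay at 3966, 4121, 4128 and 4276 in control and at 7155, 5482, 5328 and 5568 in OGTi replicates 1 to 4. All OGTi libraries were higher, with replicate 1 above the other OGTi libraries, and the log2 FC was 0.50 ± 0.09 (q = 9.13e-08) and 0.39 without replicate 1 (q = 1.67e-06). SDC2 rose from 1741, 1833, 1897 and 1507 to 2099, 2366, 2054 and 2103 in replicates 1 to 4 (log2 FC 0.31 ± 0.09, q = 0.00125). SDC4 lay at 4751, 4938, 5567 and 5704 in control and at 3173, 4469, 4643 and 4602 in OGTi replicates 1 to 4. Its log2 FC was -0.32 ± 0.08 (q = 0.000298) and -0.24 without replicate 1 (q = 0.0075).

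The summed syndecan level per kb was 5534 ± 263.7 in control and 4865 ± 55.9 in OGTi libraries. Within that sum SDC3 went from 30.7% ± 2.26 to 15.2% ± 0.56 and SDC1 from 23.6% ± 1.07 to 38.2% ± 5.37. SDC2 went from 9.55% ± 1.08 to 13.4% ± 0.81, and SDC4 from 36.2% ± 2.03 to 33.2% ± 5.68. SDC1 thus stood below SDC3 per kb in every control library and above it in every OGTi library.

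**Figure D4:**
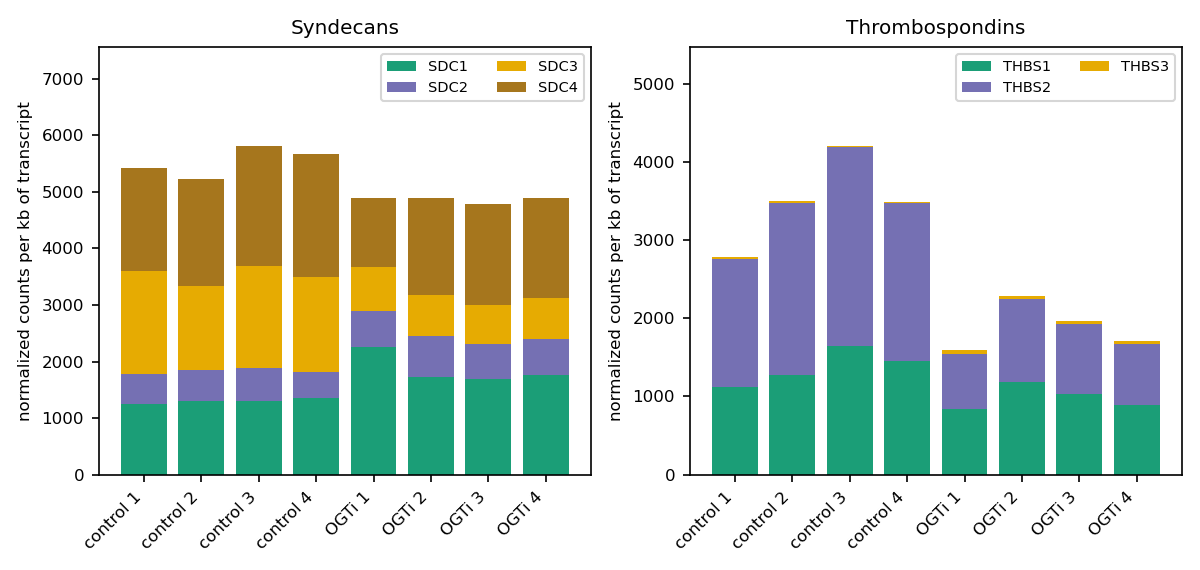
Stacked bars give the normalized counts per kb of transcript (y axis from 0) of the 4 syndecan genes and of THBS1, THBS2 and THBS3 in each control and OGTi library. The SDC3 segment shrinks from a mean of 1699 to 738.2 and the SDC1 segment grows from 1302 to 1859, while the THBS2 segment shrinks from 2100 to 861.2.

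Other genes of the same matrix are given beside the shares over all genes, 24.0% called lower and 22.7% called higher. Of 29 other matrix glycoproteins with a q, 12 fell (41.4%) and 5 rose (17.2%), with a median log2 FC of -0.17. CCBE1, a collagen-binding glycoprotein, had a log2 FC of -1.91 ± 0.08, CRIM1 of -0.92 ± 0.07 and EDIL3 of -0.86 ± 0.08, with q of 3.71e-122, 9.21e-37 and 1.79e-26. Of 16 other proteoglycans with a q, 4 fell (25.0%) and 5 rose (31.2%), with a median of 0.02, so that the share called lower was close to that of all genes. Whether these lists differ from the members was not tested. HSPG2, encoding perlecan of basement membranes, rose by a log2 FC of 0.59 ± 0.09 (q = 6.63e-11), whereas TSKU and PODN, of the leucine-rich repeat family, had log2 FC of -0.68 ± 0.09 and -1.45 ± 0.22 (q = 2.79e-14 and 3.45e-10).

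Among the genes that build and trim the glycosaminoglycan chains, 26 of 39 with a q were called, against 46.6% of all genes called in either direction. Of the 39, 13 fell (33.3%, against 24.0% of all genes) and 13 rose (33.3%, against 22.7%). The median log2 FC of those tested was 0.06. Chosen by the largest absolute test statistic among the called genes, the 3 genes named next all fell, and the 13 that rose are not named. NDST1, which starts the sulfation of heparan sulfate, went from 6223 to 2354 normalized counts (log2 FC -1.40 ± 0.07, q = 8.95e-86). EXT1, a subunit of the heparan sulfate polymerase, went from 5077 to 2979 (log2 FC -0.77 ± 0.07, q = 1.05e-27). PAPSS2, which makes the sulfate donor, went from 2628 to 1533 (log2 FC -0.79 ± 0.09, q = 1.36e-18). By step, 1 of 6 linker tetrasaccharide genes with a q fell and 3 rose. Of 13 genes of the chondroitin and dermatan chain, 7 fell and 5 rose, so that 12 of 13 were called. Of 12 genes of the heparan sulfate chain, 2 fell and 4 rose. Both extracellular sulfatases (2 of 2) fell. Of 6 genes for the supply of donors and sulfate, 1 fell and 1 rose. These groups are small, and the differences between steps were not tested.

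**Figure D5:**
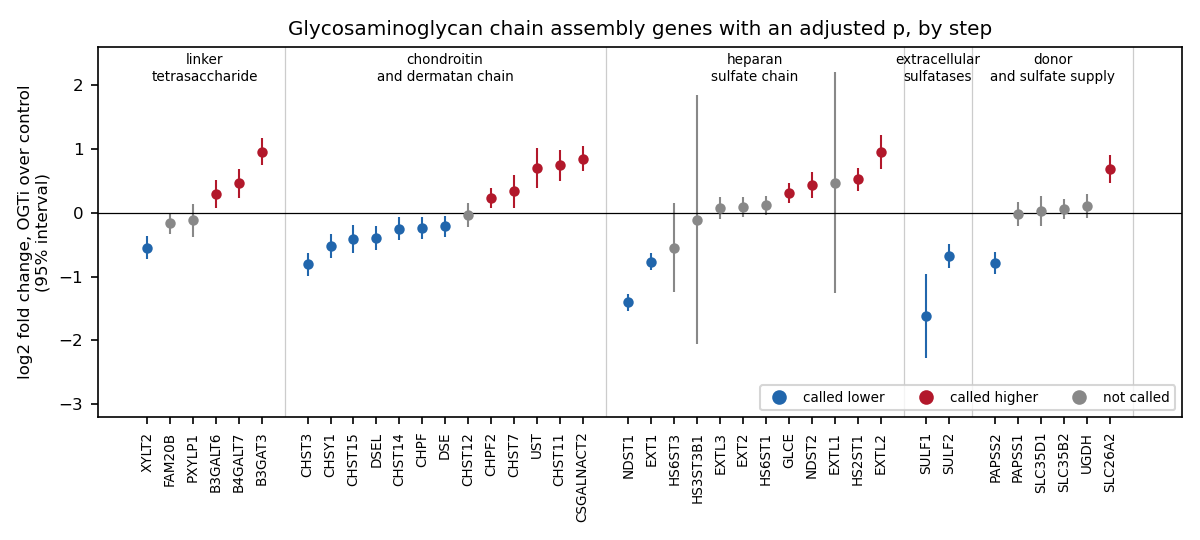
The log2 FC of OGTi over control (y axis) with its 95% interval is drawn for the 39 glycosaminoglycan chain assembly genes with a q, sorted within each step of the pathway. Points of both directions stand in all steps but the extracellular sulfatases, and NDST1, at -1.40, is the lowest point of the heparan sulfate step.

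The list of receptors of these matrix proteins also held SDCBP, which is not itself a receptor. Of the 11 listed genes with a q, 3 were called lower and 3 higher (27.3% each), close to the shares over all genes. SDCBP, encoding syntenin, which binds the cytoplasmic tails of syndecans, rose by a log2 FC of 0.65 ± 0.08 (q = 6.7e-16). The integrin subunits ITGB8 and ITGB3, partners of integrin alpha V, had log2 FC of -1.35 ± 0.22 and -0.63 ± 0.14 (q = 1.04e-08 and 4.02e-05).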

How the data were processed

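Messenger RNA was measured by strand-specific, paired-end RNA sequencing in 8 libraries of LX-2 cells, 4 control and 4 OGTi. Per the submitters' processing notes and the study's methods, the authors aligned reads to hg38 with Bowtie2 2.3.5.1 and counted them per gene with RSEM 1.3.1, and used DESeq2 1.36.0. The deposited files hold RSEM expected counts per gene, which share reads with several alignments between genes and are not scaled for depth. A gene value was fractional for 12.9% to 16.3% of the genes of a library, which can blur near-identical genes. A deposited comparison table, which holds the authors' mean, log2 fold change, its error, statistic, p-value and adjusted p-value, was not used.

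Expected counts were rounded to integers, genes with under 10 counts over all libraries were left out, and 14895 genes were compared with the Wald test of DESeq2 1.42.0 in R 4.3.3, with the replicate number as a block as in the study's methods. The adjusted p-value (q) is the Benjamini-Hochberg value over all genes, and 0.05 or lower was a call. Genes removed by independent filtering have no q. Normalized counts are the rounded counts over each library's size factor, and pair ratios add a pseudocount of 1. Libraries were paired by their labelled replicate number. Deviations from the group mean correlated by 0.379, 0.303, 0.138 and 0.269 for replicates 1 to 4 over 11702 genes with a mean of at least 50. Control 3 correlated with OGTi 4 by 0.272, and control 4 with OGTi 3 by 0.201. These values do not settle the pairing of numbers 3 and 4, which was kept as labelled. Alternatives were edgeR 4.0.16, no block, TMM factors, other count filters and leaving out each replicate. Scripts were tested on simulated data. Depth limits genes under about 3 counts, and floors cover counting error only.

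Positions and transcript lengths are those of GENCODE release 44 on GRCh38, the build of the files, matched by symbol, with the MANE Select transcript as reference. Promoters are RefSeq sequences on GRCh38.p14. The members and the other gene lists were chosen with earlier results of these data known. All members are named, and of each other matrix list the 3 called genes with the largest absolute Wald statistic, and, after their values were seen, LTBP1 and THBS4. Marker genes come from general knowledge of the cell types. The level of 1 stellate cell marker is not reported here.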

Additional observations from a re-analysis of the deposited data

Results flagged for a closer look

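Among the groups of 4 libraries of the members tested, 68 in all, 5 held a library far from the other 3, where chance would give 3.4 (1 in 20). EMILIN2 was at 14.6 normalized counts in control replicate 1 and at 2.82 to 3.45 in the other controls. LUM was at 6.01 in OGTi replicate 4 and at 0 in the other OGTi libraries. SDC1 was at 7155 in OGTi replicate 1 and at 5328 to 5568 in the others. SDC4 was at 3173 in OGTi replicate 1 and at 4469 to 4643 in the others. SDC2 was at 2366 in OGTi replicate 2 and at 2054 to 2103 in the others. The cause of these values was not tested.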

How the results depend on the processing

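Of 370 combinations of a member and an alternative, 14 changed a call, in FN1, FBN2, FBLN5, POSTN, TGFBI and SPOCK1, all of which kept their direction, and 17 of the 23 called members kept their call in all 11 alternatives. Without the replicate block 14 members were called lower in DESeq2 and 15 in edgeR, against 19 with the block in either tool, and 4 were called higher in all alternatives. Leaving out each replicate number gave 16 to 19 members called lower, and the fewest were called without replicate 4. The members' median log2 FC of -0.40 was -0.31 without the replicate block in DESeq2 and in edgeR, -0.30 with genes of at least 1 count and -0.30 with 10 counts in 4 libraries, and -0.42 to -0.33 when replicates were left out, the last without replicate 4. The count filters change which members are tested, and the cause of the other shifts was not tested. Other matrix glycoproteins called higher, 5 in all, numbered 2 to 5 when replicates were left out (2 without replicate 4 and 3 without replicate 2 or 3). Other proteoglycans called higher, 5 in all, numbered 3 to 5 (3 without replicate 1). Matrix receptors called lower, 3 in all, numbered 2 to 5 (5 without replicate 1 and 2 without replicate 2 or 3). With 3 pairs fewer genes were called over the whole table, 5127 to 5690 against 6541. The alternatives moved the median of all genes by at most 0.0063 on the log2 scale. The members under 10 counts in all (ELN, MFAP2, MFAP4, DCN and FMOD) could not be compared at this depth.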
